A study of Equus caballus with 15 samples.

Results

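Muscle sections and tendon sections of the horse front limb were compared gene by gene within the same animals. The members are the 5 libraries labelled Muscle and the 5 labelled Tendon, 10 of 15 libraries in all, chosen by their tissue labels and paired by horse number. The libraries of the myotendinous junction, where muscle fibres end on tendon collagen, were not compared here. Each horse gave a biopsy punch of 4 mm from the superficial digital flexor muscle with its attached tendon, which was frozen and cryosectioned, and about 200 micrometres of each tissue went into a library. The animals are horses 14 and 18, aged 7 years, 16 and 17, aged 5 years, and 20, aged 6 years. The first 4 were mares and horse 20 was a gelding, and all had been euthanized. Horses 16, 18 and 20 are labelled trained and horse 17 sedentary in both tissues, whereas the muscle library of horse 14 is labelled sedentary and its tendon library trained, so training was not compared. No treatment or genotype is given, and apart from that label the groups differ by tissue.

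Skeletal muscle fibres are long, multinucleate cells filled with sarcomeres, the repeating units in which myosin thick filaments pull on actin thin filaments, and they burn fuel in abundant mitochondria. The superficial digital flexor is a limb muscle whose tendon stores elastic energy in the galloping horse. Tendon holds few cells, the tenocytes, which lie between bundles of collagen and secrete the fibrils, the proteoglycans that space them and the glycoproteins that bind them. The comparison therefore sets a tissue built of contractile cells against a tissue built mostly of matrix. In bulk RNA, fewer cells of a type and less RNA per cell cannot be told apart.

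Total counts ran from 17115884 to 19295339 in the muscle libraries and from 15304218 to 17048957 in the tendon libraries. Levels are given as CPM, counts scaled to library size with TMM factors (trimmed mean of M values), and always for horses 14, 16, 17, 18 and 20 in this order. The count of a gene grows with its length, so levels are compared between tissues and not between genes. Each gene was tested by edgeR's quasi-likelihood method, horse being a block, and fold changes are log2 of muscle over tendon with their standard error (SE). This SE was derived from the size of the change and its F statistic. A gene was called at a Benjamini-Hochberg adjusted p under 0.05. The replicates are separate horses.

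The labels of the sections were set against defining markers. Muscle sections held ACTA1 or skeletal actin at 67344 to 83285 CPM and NEB, the giant protein that runs along the thin filament, at 27587 to 39036 CPM. In the tendon sections the same genes spanned 130 to 12394 CPM and 52.6 to 6990 CPM. Of 6 tenocyte markers, COMP, FMOD, THBS4 and MKX were high in every tendon section. The other 2 were not. TNMD, the membrane protein tenomodulin, stood at 0 to 0.732 CPM in muscle and 0.318 to 3.57 CPM in tendon. SCX, the transcription factor scleraxis, stood at 0.163 to 0.505 CPM in muscle and 0.153 to 0.312 CPM in tendon, and neither passed the filter on low counts. Some markers of other cells were under 1 CPM in every library, namely PAX7 of satellite cells, COL2A1 and MATN1 of cartilage, HBB and ALAS2 of blood, MS4A1 of B lymphocytes and LEP of fat, with LEP at 0 in all. Other markers of these cells reached above 1 CPM. CDH15 of satellite cells stood at 5.30 to 22.3 CPM in muscle and 0.459 to 3.71 CPM in tendon, and ADIPOQ of fat at 0.0833 to 3.74 CPM in muscle and 0.572 to 3.05 CPM in tendon.

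The tendon sections differed in how much muscle RNA they held. Over the 219 genes that the authors deposited as muscle reference genes, the median level in tendon was 14.0, 17.7 and 12.4% of that horse's own muscle level in horses 14, 16 and 17. It was 0.332 and 2.67% in horses 18 and 20. In the other direction, the 321 tendon reference genes found in the table had medians in muscle of 4.34, 5.01, 6.39, 3.798 and 3.43% of the same horse's tendon. With library totals in place of TMM the muscle genes stood at 31.8, 37.0, 27.8, 0.843 and 6.23% in tendon, and the tendon genes at 1.47 to 2.84% in muscle. Because of this spread the log2 change in horses 18 and 20 alone is given for the main muscle gene groups and some of their members. The authors chose both lists on these samples, so they are no independent check. In the same fit 218 of 219 muscle reference genes were called higher, with a median log2 change of 3.98 over 5 horses and 6.60 in horses 18 and 20. All 321 tendon reference genes were called lower in muscle, with medians of -4.32 and -4.68.

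**Figure D1:**
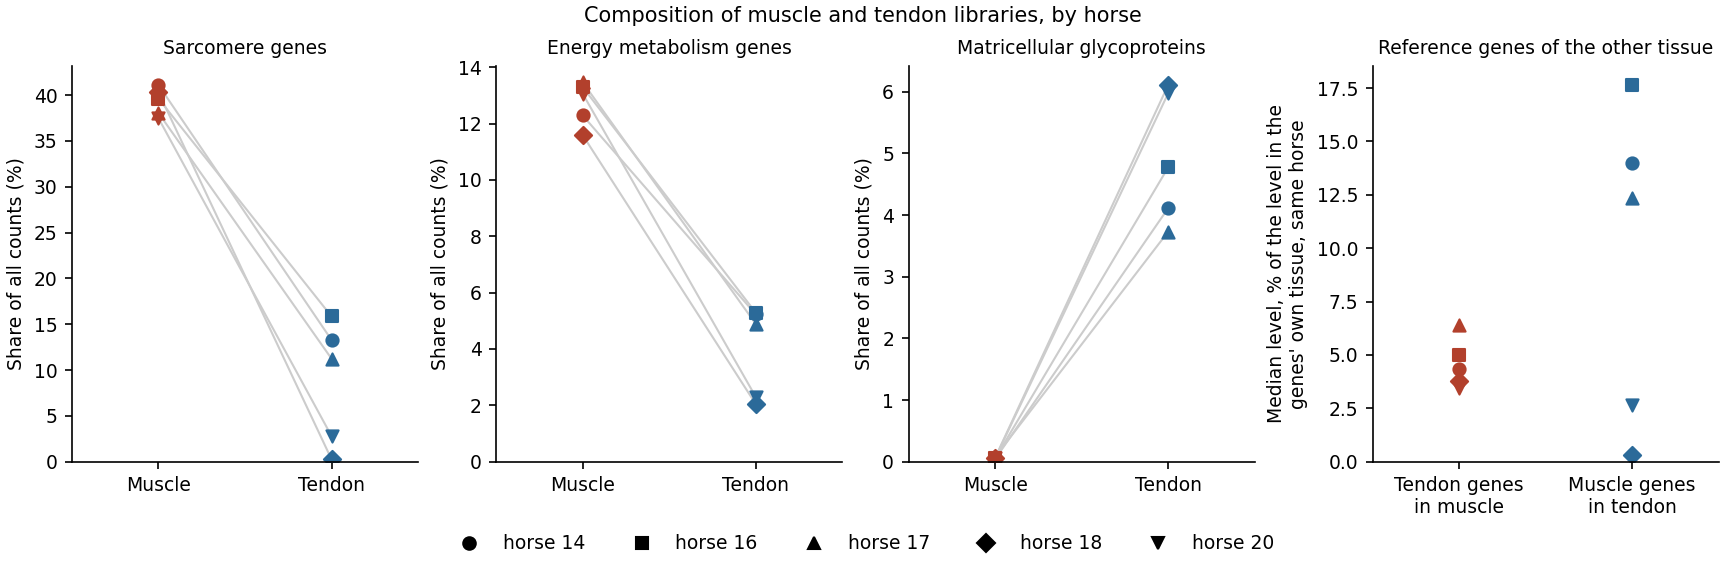
Share of all counts (%) taken by sarcomere genes, energy metabolism genes and matricellular glycoproteins in each muscle library (red, left) and tendon library (blue, right), with a symbol and a line for each horse, and in the last panel, without lines, the median level (%) of each tissue's reference genes in the other tissue. Sarcomere genes took 37.5 to 41.1% of the counts in muscle, against 0.262 to 15.9% in tendon, where horses 18 and 20 lie lowest.

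Of 14922 genes tested, 4754 were called higher in muscle (31.9%) and 5686 lower (38.1%). At least 2-fold differences were called for 3069 genes higher (20.6%) and 3952 lower (26.5%), and 4482 genes (30%) were not called. For 3696 genes (24.8%) every muscle library lay above every tendon library, and for 4211 genes (28.2%) every one lay below. The median log2 change over all genes tested was -0.17. The split between higher and lower depends on scaling: with library totals alone the median gene moved to -1.37, and 1698 genes were higher and 10899 lower, and 1236 genes were called in 1 direction under TMM and in the other with library totals. TMM factors were 0.623 to 0.705 in muscle and 1.36 to 1.66 in tendon and the 10 most abundant genes of each library took a mean of 29.5% of counts in muscle and 14.8% in tendon. Directions below are relative to the bulk of genes under TMM. Counts called in the gene lists below stand against the shares of 31.9% higher and 38.1% lower over all genes. Horses 18 and 20 alone gave 3924 genes higher and 3824 lower.

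**Figure D2:**
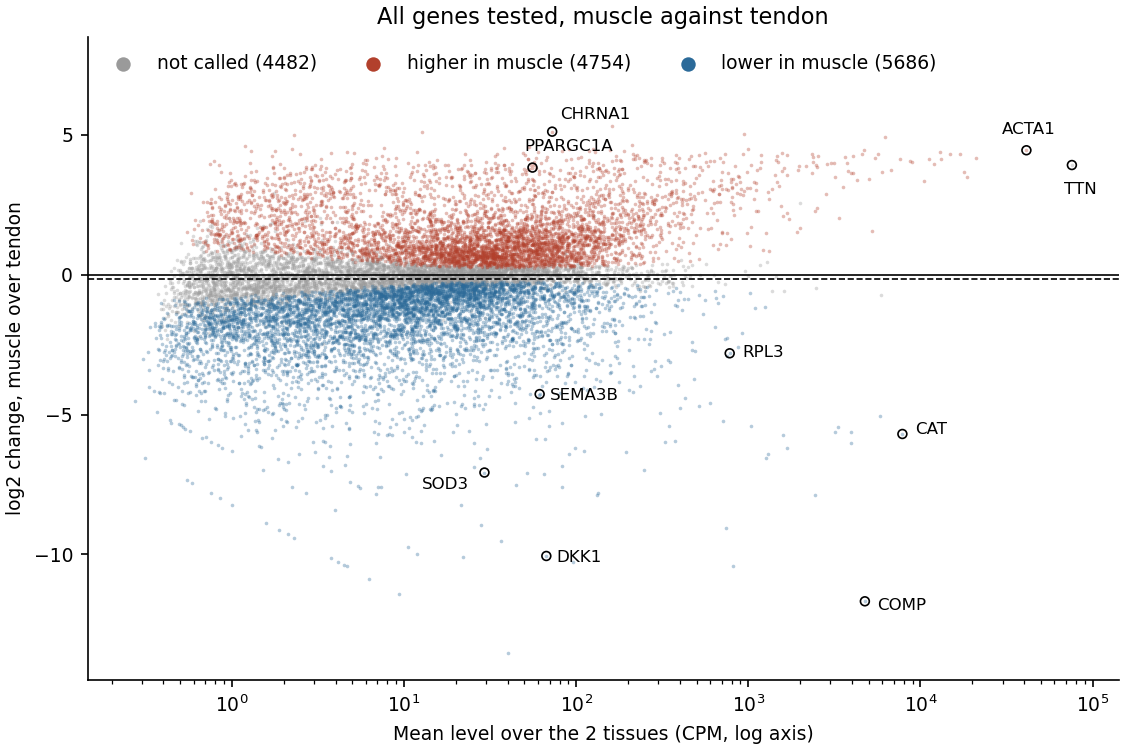
Log2 change of muscle over tendon against the mean level of the muscle and tendon means (CPM, log axis) for each gene tested, red where called higher in muscle, blue where called lower and grey where not called. The dashed line marks the median gene at -0.17, and COMP lies lowest of the circled genes at -11.68.

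Sarcomere genes took 39.3 ± 1.52% of all counts in muscle and 8.69 ± 6.80% in tendon (SD, n = 5 each). Of 58 genes tested, 54 were called higher in muscle and 4 were not called, against 31.9% called higher over all genes. Their median log2 change was 3.93, and 6.83 in horses 18 and 20 alone. The count called higher was 50 with library totals and 56 in horses 18 and 20 alone. Without horse 20 it was 15 of 19 thick filament and M-band genes, 13 of 18 thin filament genes and 16 of 21 titin and Z-disc genes. TTN on chromosome 18, which encodes titin, the elastic spring from Z-disc to M-band, had 152467, 143663, 132467, 136971 and 117655 CPM in muscle, against 22241, 28554, 19044, 193 and 4336 CPM in tendon. Every muscle section lay above every tendon section, yet TTN missed the threshold at a log2 change of 3.91 ± 1.64 (adjusted p = 0.0628, edgeR). Without horse 18 the TTN change was 3.14 (adjusted p = 0.0404), and in horses 18 and 20 alone 7.19 (adjusted p = 0.0344). The call also depends on the tool. TTN passed with DESeq2 (adjusted p = 5.31e-05) and limma-voom (0.00304), and missed with library totals in edgeR (0.0797).

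ACTA1 on chromosome 1 stood at 81228, 83285, 69821, 78458 and 67344 CPM in muscle, against 10105, 12394, 8577, 129.7 and 993 CPM in tendon. Its log2 change was 4.44 ± 1.47 (SE, adjusted p = 0.0266, edgeR), and the groups did not overlap. The call was lost without horse 14, 17 or 20, at adjusted p of 0.0519, 0.0596 and 0.095. Other members with large changes were MYBPC1, slow myosin-binding protein C, at 4.37 ± 1.20, MYL3, a ventricular and slow-fibre myosin light chain, at 4.32 ± 1.13, and LDB3, which ties actinin to the Z-disc, at 4.24 ± 1.04. TNNT1, slow troponin T, changed by 4.15 ± 1.13, and TNNC2, fast troponin C, by 4.14 ± 1.15, so troponins of both fibre types were higher in muscle. In horses 18 and 20 alone these values were 7.57, 7.64, 7.23, 7.42 and 7.23. Besides TTN, the sarcomere genes not called were MYBPH at 2.13 ± 1.07, ACTC1 or cardiac actin at 2.11 ± 0.97 and XIRP2, an actin-bundling protein of the Z-disc, at 2.57 ± 1.04. Their adjusted p were 0.108, 0.0844 and 0.0558 (edgeR), and all passed without horse 18, at 0.00103, 0.0345 and 0.00238. XIRP2 also passed with DESeq2 (adjusted p = 0.000977) and limma-voom (0.0202), and ACTC1 with DESeq2 (0.0359).

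Excitation-contraction coupling turns the action potential into calcium release. Of 17 genes tested, 16 were called higher in muscle, with a median of 3.71 over 5 horses and 5.94 in horses 18 and 20. ATP2A1, the calcium pump of fast fibres, changed by 4.21 ± 1.01, CACNA1S, the voltage sensor, by 4.15 ± 0.98 and CACNG1, a subunit of the same channel, by 4.07 ± 0.98. In horses 18 and 20 alone their changes were 7.08, 7.21 and 7.08. CASQ2, the calsequestrin of heart and slow fibres, was not called at 1.62 ± 0.81 (adjusted p = 0.106, edgeR), and passed without horse 18 (adjusted p = 0.0186). At the neuromuscular junction, 11 of 13 genes were called higher and 1 lower, against 6 and 2 with library totals. CHRND, a receptor subunit, had 21.98, 22.8, 23.5, 15.9 and 9.84 CPM in muscle, against 4.37, 5.76, 0.619, 0 and 0.153 CPM in tendon, and changed by 4.01 ± 0.82. COLQ, the collagen tail that anchors acetylcholinesterase, changed by 4.18 ± 0.60, and RAPSN, which clusters receptors, by 3.68 ± 0.70. The lower member was LRP4, the receptor for nerve-derived agrin, at -1.39 ± 0.27 (adjusted p = 0.00223, edgeR), with 19.4 ± 5.35 CPM in muscle and 51.9 ± 17.3 CPM in tendon (SD, n = 5 each), and its groups overlapped.

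Genes of energy metabolism took 12.7 ± 0.785% of counts in muscle and 3.95 ± 1.63% in tendon (SD, n = 5 each). All 64 oxidative phosphorylation genes tested were called higher in muscle and none overlapped between tissues, against 31.9% and 24.8% over all genes. Their log2 changes ran from 1.87 to 4.23, with a median of 2.79 over 5 horses and 3.41 in horses 18 and 20. ATP5F1B, the catalytic beta subunit of ATP synthase, stood at 7254, 6683, 5922, 5814 and 5742 CPM in muscle, against 1171, 1346, 936, 309.6 and 413 CPM in tendon, a change of 3.12 ± 0.46 (adjusted p = 0.000572, edgeR). Its tendon values were again lowest in horses 18 and 20. NDUFA5 of complex I changed by 3.40 ± 0.36, SDHA, the flavoprotein of complex II, by 2.96 ± 0.36, UQCRC1 of complex III by 3.01 ± 0.39 and COX6A2, a complex IV subunit of heart and skeletal muscle, by 4.23 ± 0.93. In horses 18 and 20 alone COX6A2 changed by 7.03.

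All 22 genes of the citric acid cycle and of pyruvate entry and all 24 of fatty acid oxidation were called higher in muscle, with medians of 2.69 and 2.37, and of 3.34 and 3.06 in horses 18 and 20. With library totals 21 and 22 of them were called higher. IDH2, mitochondrial isocitrate dehydrogenase, changed by 3.60 ± 0.39 and CPT1B, which admits fatty acids to the mitochondrion, by 4.41 ± 0.83 (6.94 in horses 18 and 20). PPARGC1A encodes the coactivator that drives mitochondrial gene transcription, and had 118, 115, 79.6, 90.6 and 98.6 CPM in muscle, against 18.2, 23.7, 9.45, 0.283 and 3.43 CPM in tendon (log2 change 3.82 ± 0.77). No muscle section overlapped with a tendon section. Of 25 genes of glycolysis and glycogen 24 were called higher, with PYGM, glycogen phosphorylase of muscle, at 4.46 ± 1.10 (7.68 in horses 18 and 20), PGAM2, a phosphoglycerate mutase, at 4.30 ± 1.02, PPP1R3A, which targets phosphatase to glycogen, at 4.00 ± 1.01, and FBP2, the muscle fructose bisphosphatase, at 3.97 ± 0.61. With library totals 20 of them were called higher.

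The exception was HK2, the hexokinase regulated by insulin in muscle, which was lower at -0.51 ± 0.15 (adjusted p = 0.018, edgeR). HK2 had 44.6, 16.3, 16.7, 29.2 and 16.1 CPM in muscle, against 42.0, 21.3, 26.2, 47.7 and 30.2 CPM in tendon, and the groups overlapped. Its call was lost without horse 17 or 20 (adjusted p 0.0568 and 0.065) and without the horse block (0.231). All 9 genes listed for phosphate transfer and for carrying oxygen and carbon dioxide were called higher. MB, myoglobin, changed by 4.30 ± 1.09, and by 7.43 in horses 18 and 20 alone.

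Control of fibre identity and turnover followed the same side. Of 16 myogenic transcription factors 15 were called higher in muscle and 1 lower. MYF6, the myogenic factor of mature fibres, changed by 4.04 ± 0.90, MYF5, a factor of muscle precursors, by 3.84 ± 0.76, EYA1, a coactivator for homeobox factors, by 3.48 ± 0.67 and TBX15, a factor of glycolytic fibres in mice, by 3.33 ± 0.62. The lower gene was MEF2A at -0.50 ± 0.14 (adjusted p = 0.0146, edgeR), whose call was lost without horse 14 or 16 (adjusted p 0.0585 and 0.0607) and in horses 18 and 20 alone (0.168). All 19 listed genes of muscle proteolysis and chaperones were called higher, 18 with library totals. Among them, TRIM63, the ubiquitin ligase MuRF1, changed by 4.31 ± 0.89, ASB11 by 4.39 ± 0.76 and SMYD1, a methyltransferase that helps fold myosin, by 4.25 ± 0.96.

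Complexes found in every cell moved too, by less. All 31 proteasome subunits were called higher in muscle, with a median log2 change of 1.38. PSMB5, the chymotrypsin-like subunit, had 801, 656, 483, 711 and 761 CPM in muscle, against 213, 235, 119, 97.5 and 125 CPM in tendon, without overlap, a change of 2.18 ± 0.25 (adjusted p = 0.00015, edgeR). Of 37 mitochondrial ribosomal proteins 34 were called higher (median 1.37), among them MRPL12 at 2.36 ± 0.20 and MRPS15 at 2.22 ± 0.17. These counts rest on the scaling. With library totals 7 proteasome subunits were called higher and 2 lower, and 17 and 2 mitochondrial ribosomal proteins. As a share of all counts the proteasome took 0.509 ± 0.0429% in muscle and 0.442 ± 0.0409% in tendon (SD, n = 5 each), with overlap between the tissues.

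**Figure D3:**
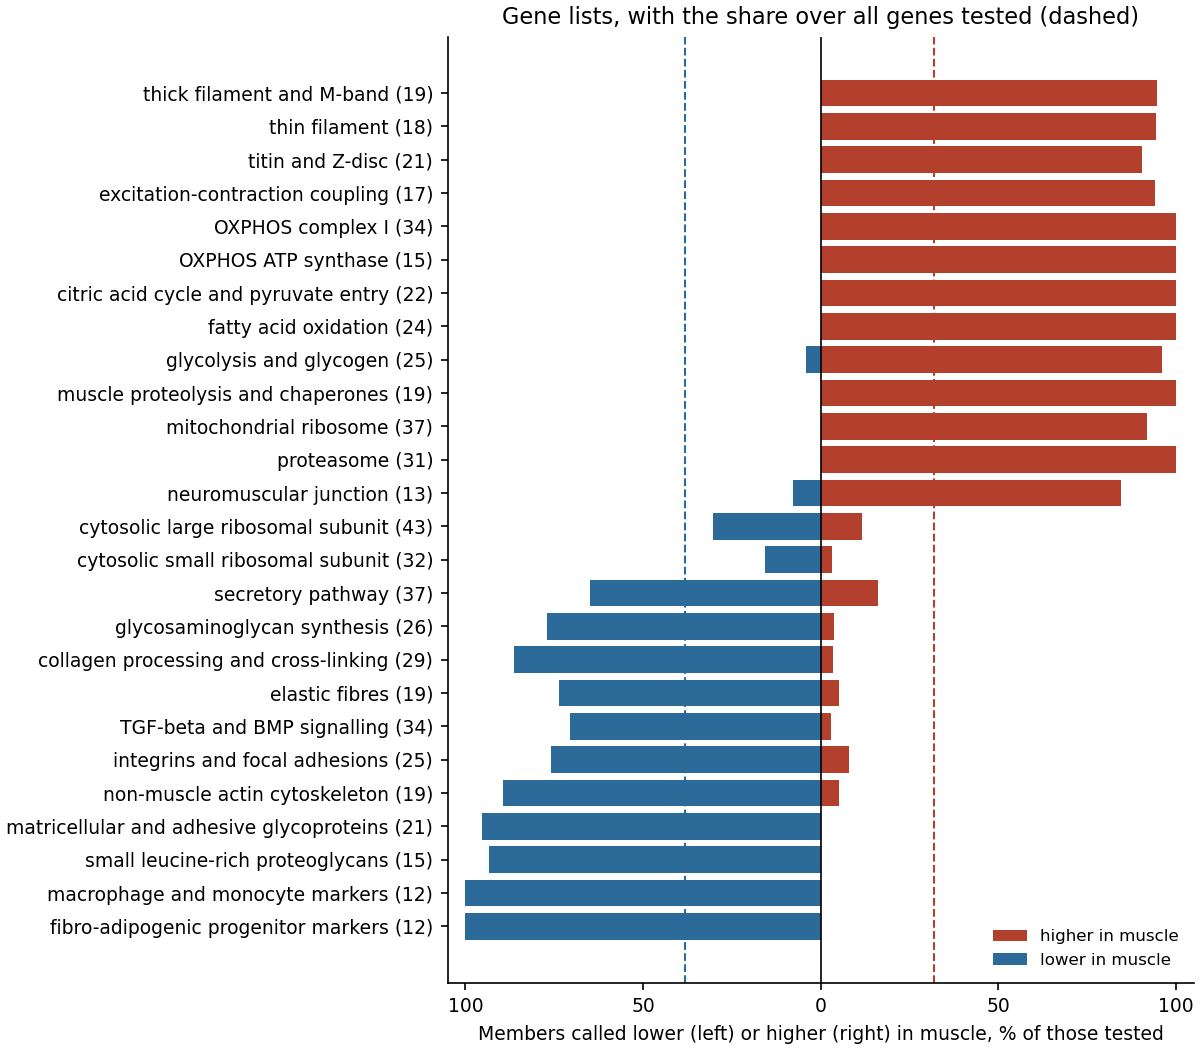
Percent of the tested members of each gene list called higher in muscle (red, right) or lower (blue, left), with the number tested in brackets and the shares over all genes (31.9% and 38.1%) as dashed lines. The bars of the oxidative phosphorylation lists and of the proteasome reach 100% on the right.

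Secreted glycoproteins of the matrix were lower in muscle. Of 21 matricellular and adhesive glycoproteins tested, 20 were called lower in muscle and none higher, with a median of -3.74, against 38.1% called lower over all genes. They took 0.0576 ± 0.0129% of counts in muscle and 4.94 ± 1.07% in tendon (SD, n = 5 each). COMP on chromosome 21, a pentameric glycoprotein that binds collagen, had 1.67, 2.43, 3.42, 4.75 and 2.69 CPM in muscle, against 8742, 10014, 6787, 9017 and 12942 CPM in tendon. The groups lay far apart, with a log2 change of -11.68 ± 0.66 (adjusted p = 1.20e-05, edgeR). THBS1, its relative thrombospondin 1, changed by -7.87 ± 0.54, and FN1, fibronectin, by -5.44 ± 0.42. Their changes in horses 18 and 20 alone were -11.48, -7.86 and -5.26, close to those of 5 horses, unlike the sarcomere genes. POSTN was the member not called, at -0.32 ± 0.90 (adjusted p = 0.761, edgeR).

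Collagen genes were mostly lower in muscle. Of 32 collagen genes tested, 24 were called lower, 2 higher and 6 neither, and the family took 0.0345 ± 0.0128% of counts in muscle and 0.260 ± 0.0530% in tendon (SD, n = 5 each). COL1A1 on chromosome 11 encodes a chain of type I collagen, the main protein of tendon. It had 17.2, 24.0, 45.2, 38.6 and 12.9 CPM in muscle, against 112, 172, 116, 148 and 148 CPM in tendon, a change of -2.47 ± 0.31 (adjusted p = 0.000226, edgeR). COL24A1, a minor fibril-forming chain, changed by -4.14 ± 0.30, and COL5A1, which sets fibril diameter, by -3.42 ± 0.20. COL11A1 had 0 counts in all muscle libraries and 4.26 ± 2.72 CPM in tendon (SD, n = 5), at least 16.9-fold lower in muscle if 3 counts per library are taken as the floor. On the surface of fibrils, COL16A1 changed by -5.58 ± 0.34, and among the network collagens COL8A2 by -5.19 ± 0.38. COL6A6, a chain of beaded filaments, was higher in muscle at 2.96 ± 0.54 (adjusted p = 0.00165, edgeR), with 2.27 ± 1.73 CPM in muscle and 0.291 ± 0.270 CPM in tendon. COL3A1 was not analysed here.

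Proteoglycans space and bind the fibrils. Of 15 small leucine-rich proteoglycans 14 were called lower in muscle, and the list took 0.0445 ± 0.00795% of counts in muscle and 2.66 ± 0.788% in tendon (SD, n = 5 each). DCN, decorin, had 266, 309, 368, 312 and 416 CPM in muscle, against 7823, 11231, 7459.8, 14845 and 15363 CPM in tendon (log2 change -5.04 ± 0.49), and none of its sections overlapped between tissues. TSKU, tsukushi, changed by -6.97 ± 0.27 and EPYC, epiphycan, by -7.43 ± 0.47. ACAN, the large aggregating proteoglycan aggrecan, had 0.0832 ± 0.102 CPM in muscle and 72.7 ± 57.7 CPM in tendon (SD, n = 5 each), and its link protein HAPLN1 0.0164 ± 0.0366 CPM and 7.95 ± 3.02 CPM. Their changes were -9.50 ± 0.54 and -8.40 ± 0.50. In muscle ACAN and HAPLN1 had few or no counts, so the size of these changes is uncertain. Both are also cartilage markers, while COL2A1, the defining collagen of cartilage, stood at 0 to 0.4995 CPM in muscle and 0.0707 to 0.446 CPM in tendon.

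Enzymes that build sugar chains on proteoglycans were also mostly lower in muscle. Of 26 tested, 20 were called lower in muscle and 1 higher. CHST3 and CHSY3, which sulfate and extend chondroitin chains, changed by -5.96 ± 0.36 and -4.78 ± 0.43, and DSE, which converts chondroitin to dermatan, by -3.66 ± 0.23. NDST1, which sulfates heparan chains, was the higher member at 1.20 ± 0.26, and with library totals it was not called (adjusted p = 0.98, edgeR). Of 29 genes of collagen processing 25 were called lower. LOX, the cross-linking oxidase, had 1.17, 3.51, 5.45, 2.95 and 1.77 CPM in muscle, against 1062, 839, 1642, 1840.2 and 2012 CPM in tendon (log2 change -9.05 ± 0.50). Its relative LOXL4 changed by -4.91 ± 0.52, PCOLCE2, an enhancer of procollagen cleavage, by -4.95 ± 0.27 and P3H2, a prolyl hydroxylase, by -4.80 ± 0.25.

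The general secretory pathway leaned the same way. Of 37 genes 24 were called lower in muscle and 6 higher, with a median of -0.63, and with library totals 36 were lower and 0 higher. The largest changes were in KDELR3, a retrieval receptor for proteins of the endoplasmic reticulum, at -4.77 ± 0.25, CREB3L2, a transcription factor of the secretory pathway, at -2.37 ± 0.20, and SEC24D, a coat protein of vesicles that carry procollagen, at -2.12 ± 0.16. Elastic fibre genes were lower for 14 of 19. EMILIN1 changed by -6.21 ± 0.52 and FBLN1, fibulin 1, by -6.00 ± 0.35, whereas FBN2, the fibrillin of fetal tissue, was higher in muscle at 3.37 ± 0.62 (adjusted p = 0.00174, edgeR), with 8.62 ± 1.56 CPM in muscle and 1.03 ± 0.860 CPM in tendon (SD, n = 5 each).

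Regulators and receptors of the matrix were also mostly on the tendon side. Of 25 proteases and inhibitors 17 were called lower in muscle. ADAMTS5, an aggrecan-cleaving protease, changed by -3.53 ± 0.54 and HTRA1, a secreted serine protease, by -3.38 ± 0.18, while MMP15, a membrane-type metalloproteinase, was higher at 3.29 ± 0.55. Of 34 genes acting in TGF-beta or BMP signals 24 were lower, among them CHRDL1, a BMP antagonist, at -3.86 ± 0.50, and ID2, a target of BMP, at -3.72 ± 0.28. Of 26 Wnt and Hedgehog genes 17 were lower (11 in horses 18 and 20 alone), led by secreted inhibitors. DKK1, which blocks Wnt receptors, had 0.0833, 0.270, 0.0814, 0.164 and 0 CPM in muscle, against 114, 216, 73.9, 105.5 and 160.2 CPM in tendon (log2 change -10.06 ± 0.32). With so few counts of DKK1 in muscle, the size of its change is uncertain. DKK3 changed by -7.59 ± 0.33, the receptors FZD8 and FZD1 by -5.10 ± 0.23 and -4.33 ± 0.39, and DKK2 was higher in muscle at 1.40 ± 0.38, a call lost with library totals (adjusted p = 0.624).

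Among integrins and focal adhesion genes 19 of 25 were called lower in muscle and 2 higher. ITGA10, a collagen-binding chain known from chondrocytes, changed by -6.35 ± 0.23, ITGA2 by -4.69 ± 0.55 and the integrin-like ITGBL1 by -6.44 ± 0.46. Of 19 genes of the non-muscle actin cytoskeleton 17 were lower, with VIM, vimentin, at -2.89 ± 0.21 and ACTN1 at -2.83 ± 0.18. Tendon transcription factors included RUNX1 at -4.83 ± 0.18, TWIST2 at -4.95 ± 0.31 and KLF4 at -3.52 ± 0.15. Among 10 regulators tested 7 were called lower in muscle and 1 higher, against 4 and 1 in horses 18 and 20 alone. MKX, a homeobox factor of tenocytes, had 0.0833, 0, 0.325, 0.0819 and 0.168 CPM in muscle, against 32.6, 33.4, 34.5, 58.0 and 55.6 CPM in tendon (log2 change -8.24 ± 0.34). Its muscle level is near 0, so the size of this change is uncertain.

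Outside the matrix, an enzyme of peroxide breakdown was lower in muscle. CAT on chromosome 12 encodes catalase, which breaks down hydrogen peroxide in peroxisomes, and had 239.9, 296, 216, 274 and 298 CPM in muscle, against 12968, 10900.3, 5998, 21150.03 and 26153 CPM in tendon. Every tendon section lay above every muscle section, and the log2 change was -5.70 ± 0.60 (adjusted p = 0.000107, edgeR). The other antioxidant enzymes were divided, with 14 of 20 called higher in muscle and 6 lower, against 5 and 10 with library totals. The secreted GPX3, plasma glutathione peroxidase, changed by -5.63 ± 0.46 and SOD3, extracellular superoxide dismutase, by -7.07 ± 0.28. Mitochondrial and cytosolic peroxiredoxins stood on the other side, PRDX3 at 3.08 ± 0.38, PRDX2 at 2.37 ± 0.21 and PRDX6 at 1.86 ± 0.17. CLU, the extracellular chaperone clusterin, changed by -6.01 ± 0.42 and MGP, an inhibitor of calcification, by -5.61 ± 0.54.

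**Figure D4:**
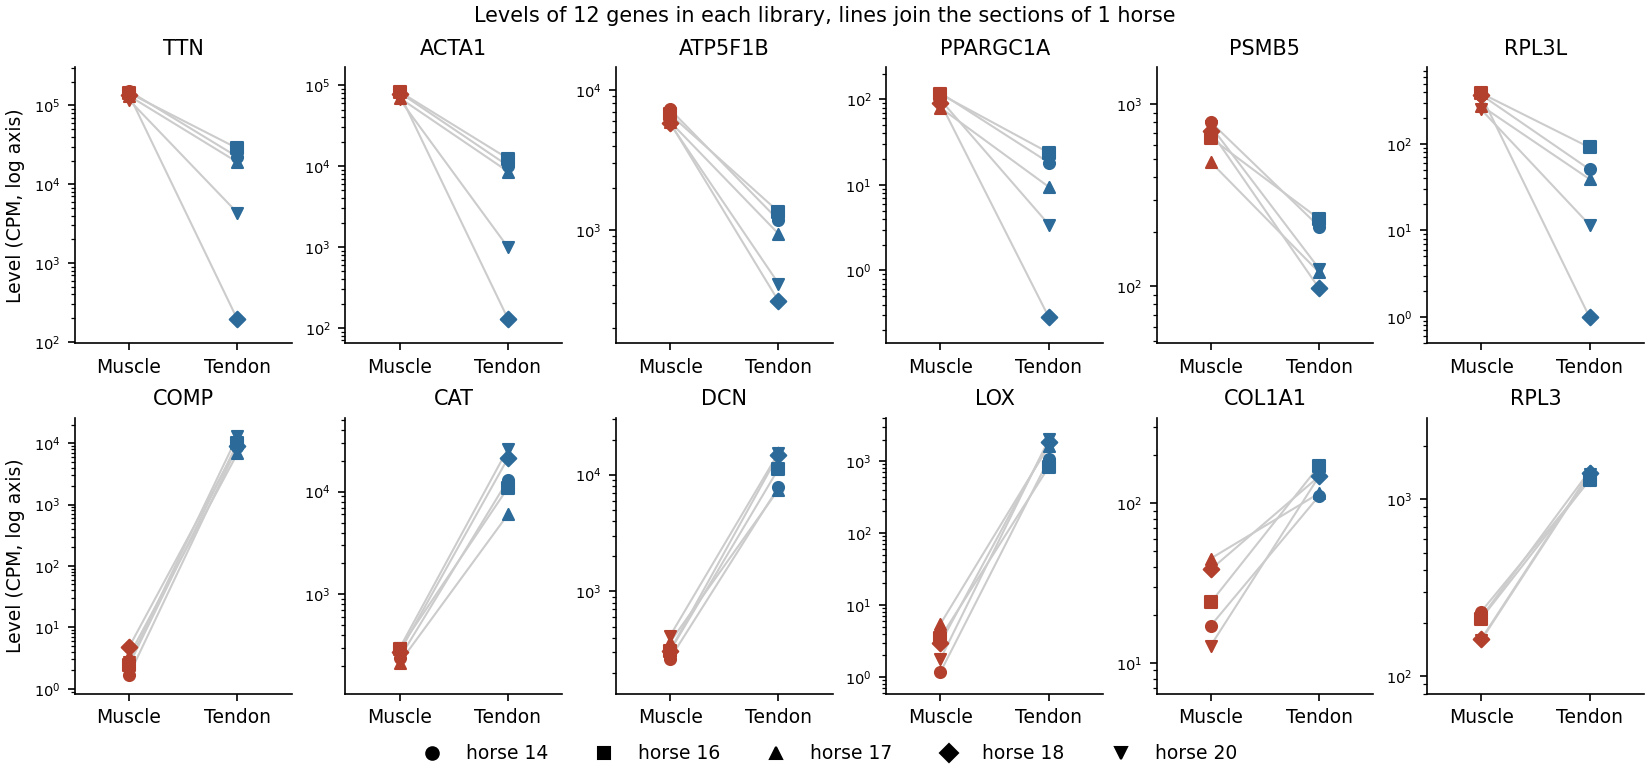
Levels (CPM, log axis) of 12 genes in each muscle library (red, left) and tendon library (blue, right), with a symbol and a joining line for each horse. In the top row the tendon value is lowest in horse 18 for every gene, and in the lower row every tendon value lies above every muscle value, as for RPL3 at 232, 212, 215, 162 and 159.7 CPM in muscle, against 1285, 1288, 1444, 1411 and 1385 CPM in tendon.

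Families with a listed muscle form and another form, either widely used or typical of other tissues, were compared within each horse. The pairs were chosen with earlier results of these data known. Of 58 pairs listed, 55 were measured in full, and in 48 the muscle form was more muscle-biased than its partner (limma on 5 within-horse differences of log2 CPM plus 0.5, adjusted p under 0.05). Scaling factors cancel in this difference, so it does not depend on the normalization apart from the added 0.5. The median difference was 4.84 on the log2 scale. In 36 pairs the 2 forms were called in opposite directions in the gene-wise test, and in 11 both were called higher in muscle. AMPD1, AMP deaminase of muscle, differed from AMPD2 by 5.99, 5.40, 5.80, 11.49 and 8.43 in the 5 horses, a mean of 7.42 ± 0.96 (SE, limma adjusted p = 0.000425).

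CPT1B against CPT1A, the liver form, differed by 7.33 ± 1.05, PFKM against PFKP by 6.75 ± 0.74 and DES, desmin, against VIM by 6.81 ± 1.03. RPL3L, a ribosomal protein of striated muscle, had 371, 386, 277, 366 and 251 CPM in muscle, against 50.8, 91.2, 39.2, 0.990 and 11.6 CPM in tendon (log2 change 3.76 ± 0.87). Its partner RPL3 was lower in muscle by contrast, at -2.81 ± 0.23 (adjusted p = 3.84e-05, edgeR), and the pair differed by 6.82 ± 0.97. In 1 pair the listed muscle form was the less muscle-biased. LAMA2, the laminin chain of the muscle basement membrane, had 129.8 ± 17.2 CPM in muscle and 849 ± 62.4 CPM in tendon (SD, n = 5 each), and its log2 change of -2.72 ± 0.19 lay -1.60 ± 0.57 from that of LAMA4 (SE, limma adjusted p = 0.0241). That call was lost without horse 16, 17 or 20, where adjusted p was 0.0918, 0.0765 and 0.109.

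In 6 pairs no difference was called. LDHA minus LDHB, the lactate dehydrogenase chains named after muscle and heart, was -0.21 (95% interval -1.57 to 1.15), and both chains were higher in muscle, at 1.47 ± 0.30 and 1.68 ± 0.25, calls lost with library totals (adjusted p 0.409 and 0.0943, edgeR). SLC16A3 minus SLC16A1, the lactate transporters, was -0.58 (-1.92 to 0.77), and HK2 minus HK1 was -0.75 (-2.06 to 0.56). These intervals are wide and do not show that the forms act alike.

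**Figure D5:**
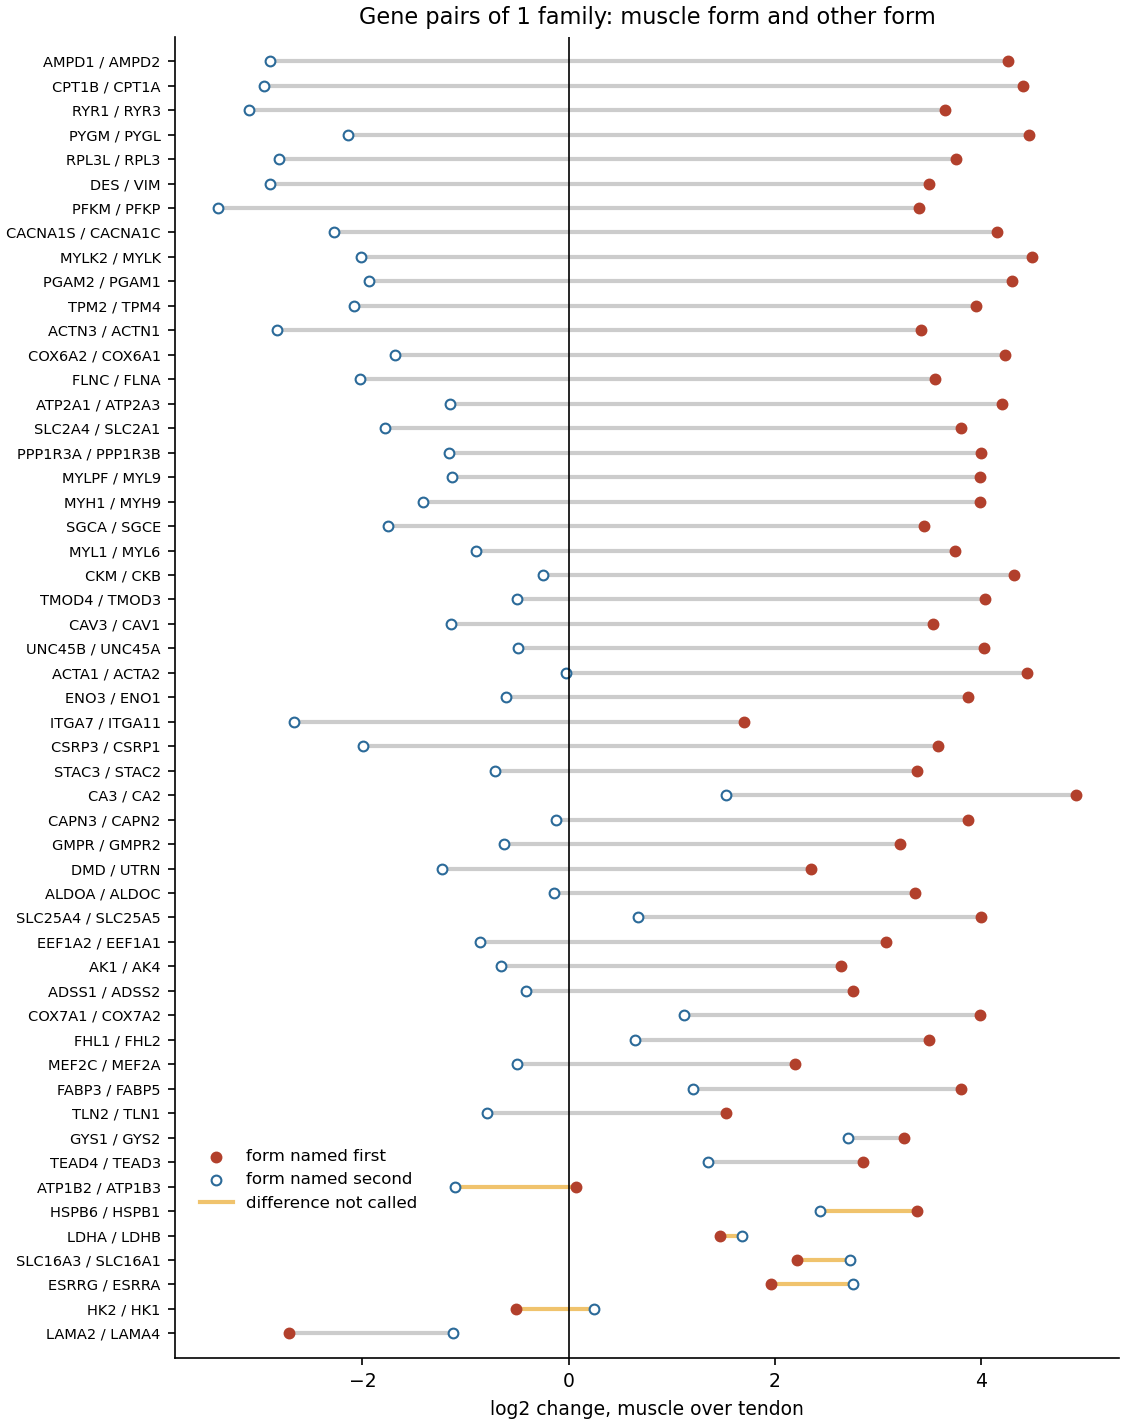
Log2 change of muscle over tendon for the muscle form (filled red) and the other form (open blue) of the pairs shown, joined by a line, ordered by the within-horse difference, with a yellow line where the difference was not called. AMPD1 and AMPD2 differ most and stand at the top, and LAMA2 and LAMA4 stand at the bottom with the muscle form on the left.

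Cytosolic ribosomal proteins were mostly not called. Of 75 tested, 6 were higher in muscle and 18 lower, and the median log2 change was -0.20, beside -0.17 over all genes. Without horse 14 the higher ones were 3, and without horse 17 and without horse 20 the lower ones were 11 and 10. With library totals 1 was higher and 73 lower, and the share of counts in the list was 1.24 ± 0.212% in muscle and 3.34 ± 0.467% in tendon (SD, n = 5 each). RPLP2, a protein of the ribosomal stalk, was higher in muscle at 2.15 ± 0.23 (adjusted p = 0.000108, edgeR), with 883, 344, 355, 547 and 469.9 CPM in muscle, against 142, 114, 118, 94.96 and 90.4 CPM in tendon. RPL3 and RPLP2 were the members farthest from the rest. Reads of ribosomal proteins can be shared with processed copies, which the counting may split.

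The shares of counts were tested over the 5 horses with an exact two-sided paired permutation test. The smallest p that 5 pairs allow is 0.0625, and all 9 gene groups gave it, so none could pass 0.05. For 8 of the groups muscle and tendon libraries did not overlap, and the proteasome was the exception.

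Markers of some other cell types differed between the tissues as well. All 12 macrophage and monocyte markers tested were called lower in muscle, and the summed level of the 13 found was 69.4 to 188 CPM in muscle and 291 to 589.5 CPM in tendon. CD163, a scavenger receptor of resident macrophages, had 18.98, 16.8, 45.0, 41.4 and 52.3 CPM in muscle, against 118, 72.2, 109.7, 181 and 120.2 CPM in tendon. All 12 markers of fibro-adipogenic progenitors, the connective tissue cells of muscle, were lower, with sums of 794 to 1193 CPM in muscle and 10566 to 17975 CPM in tendon. DCN makes up most of the sum in tendon, and tenocytes express it too. Of 14 endothelial markers 9 were lower and 1, the VEGF receptor FLT1 at 1.80 ± 0.24, higher. In horses 18 and 20 alone 5 were lower, and 2 when the tendon of those horses was set against all muscle libraries without the block. The endothelial list had sums of 463 to 679 CPM in muscle and 579 to 1247 CPM in tendon. The contribution of these cells to the gene group results was not tested.

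Of 11 Schwann cell and nerve markers 6 were lower and 2 higher, with sums of 94.1 to 204 CPM in muscle and 267 to 511 CPM in tendon. Neurofilament genes NEFM and NEFL changed by -5.10 ± 0.97 and -4.87 ± 0.27. Of 7 adipocyte markers 4 were higher in muscle and 1 lower (3 and 3 with library totals), with sums of 568 to 966 CPM in muscle and 45.5 to 192 CPM in tendon. The leading genes were LPL at 4.18 ± 0.61 and PLIN4 at 3.73 ± 0.64, which muscle fibres also express, while the fat-defining PLIN1 stood at 0 to 0.325 CPM in muscle and 0.0825 to 1.24 CPM in tendon. Among pericyte and smooth muscle markers 3 were higher and 3 lower of 10, near the shares of 31.9% and 38.1% over all genes. Their sums were 4797 to 8608 CPM in muscle and 472 to 2208 CPM in tendon, and DES, which muscle fibres share, makes up most of the sum in muscle. With library totals 1 of them was higher and 7 lower. Of 8 lymphocyte markers tested 3 were lower (5 with library totals), a share near the 38.1% of all genes, with sums of 14.4 to 23.3 CPM in muscle and 18.2 to 33.99 CPM in tendon. Blood cell markers summed to at most 3.28 CPM in muscle and 0.714 CPM in tendon. Satellite cell, cartilage and synovial lining markers had 7, 6 and 6 members tested, with 2, 1 and 1 higher and 4, 4 and 3 lower. The shares over all genes were 31.9% higher and 38.1% lower, and lists this small say little beside them. Satellite cell markers summed to 137 to 158 CPM in muscle and 258 to 404 CPM in tendon, cartilage markers to 55.4 to 71.2 CPM and 147 to 346 CPM, and synovial lining markers to 186 to 260.4 CPM and 162 to 261 CPM. The satellite cell sum need not track satellite cells. CDH15 went against it, with 5.30 to 22.3 CPM in muscle and 0.459 to 3.71 CPM in tendon, and PAX7 was near 0 in both.

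Many genes were close in both tissues relative to the bulk. The 95% interval of the log2 change lay within 0.5 of 0 for 1029 genes (6.90%) and within 1 for 4446 (29.8%). ATG13, which starts autophagy, had 63.2 ± 3.34 CPM in muscle and 62.5 ± 7.14 CPM in tendon (SD, n = 5 each), a change of 0.02 with an interval of -0.20 to 0.25, and -1.18 with library totals. The spread among horses was alike in both tissues for genes called lower in muscle, with a median SD of log2 CPM of 0.331 in muscle and 0.321 in tendon, and for genes called higher it was 0.251 and 0.310.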

How the data were processed

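Read counts for each gene in each library, as whole numbers before any normalization, come from 1 table that the authors deposited, per the file headers. Its 15 columns of rlog values, which the authors deposited on a log2-like scale, were not used here. Their reference gene lists carry the authors' deposited log2 fold changes and adjusted p-values. The submitters' processing notes name EquCab3.0 as a build and list DESeq2 1.26.0. An aligner, a counter and a strand setting are not given in those sources. Without strand, overlapping genes on opposite strands share reads, as near-identical copies do.

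Counts of the 10 muscle and tendon libraries were fitted with edgeR 4.0.16 in R 4.3.3 (filterByExpr, TMM, quasi-likelihood test) with tissue and horse as terms. The filter removed 15375 of 30297 genes. Junction libraries, which hold both tissues, were left out of this fit. No libraries were alike within sampling noise: the lowest chi-square per gene within a tissue was 12.8. Muscle and tendon of 1 horse come from the same animal, and deviations from the tissue means correlated with r of 0.148 to 0.312 within horses, against -0.199 to 0.114 between horses, so horse was a block. Pairs of related genes were tested with limma 3.58.1. On simulated counts for the muscle and tendon libraries (14490 genes) the edgeR fit called 43% of genes changed 2-fold, 100% of those changed 4-fold and 0.0560% of unchanged genes. Only 100 genes were changed at each size, with the same dispersion for all genes, no horse effect and no uneven muscle RNA in tendon. These rates need not hold for the real libraries, where TTN at a log2 change of 3.91 was not called.

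Gene lists (59, with 1172 symbols of which 34 matched no row), pairs and named genes were chosen with earlier results of these data known. Named genes come from a rule: the 15 largest changes each way among called genes of at least 5 CPM with the same direction in 5 horses, the 10 most abundant per tissue, the 4 leading called members of each list in each direction with those not called or opposed, all pairs, the 8 most variable per tissue and the 10 of at least 50 CPM nearest to no change. Genes outside it are cell type markers, or are said to be chosen after their values were seen. Some genes are not reported here. For genes with 0 counts in all muscle libraries, a floor of 3 counts per library gave the fold bound that is printed. The log2 changes, SE and calls used the counts without a floor. Alternatives were other scaling, filter, tools (DESeq2 1.42.0, limma-voom), no horse block, all 15 libraries, each horse left out, and horses 18 and 20 only. Depth limits genes of a few counts. The SE of a gene's log2 change was derived from the change and its F statistic, and the interval from that SE. For genes with few or no counts in 1 tissue, such as DKK1, ACAN, HAPLN1 and MKX, this SE can understate the counting error.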

Additional observations from a re-analysis of the deposited data

Results flagged for a closer look

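The share of counts in cytosolic ribosomal proteins was 1.60% in the muscle section of horse 14, far above the other 4 muscle sections at 1.06 to 1.19%. Of 64 groups of 5 libraries looked at, 1 had a library this far from the others, and chance gives about 5% of such groups.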

How the results depend on the processing

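Scaling moved the split most. With library totals 1698 genes were higher in muscle and 10899 lower, 1117 and 9006 of them at least 2-fold, so that 13.5% of calls were higher in place of 45.5%. Under the other scaling, filter and tool choices, 4679 to 5323 genes were higher and 5325 to 6012 lower. Leaving out 1 horse gave 4422 to 4607 higher and 5134 to 5294 lower, 2958 to 3223 and 3802 to 3956 at least 2-fold, and 46 to 48 gene pairs. Without the replicate block 4597 were higher and 5499 lower, TTN (adjusted p = 0.0259, edgeR) and XIRP2 (0.0457) passed, and HK2 (0.231) and APP (0.173) did not. Horses 18 and 20 alone gave 3924 and 3824. Without the 10 most abundant genes of each library, the difference in share of counts (muscle minus tendon, percentage points) moved to 14.3 for the sarcomere, 1.82 for excitation-contraction coupling, 10.3 for energy metabolism, -1.02 for small leucine-rich proteoglycans, -2.28 for matricellular glycoproteins and 0.203 for the proteasome. Of 144 genes named, those that changed sign were ATG13 (-1.18 with library totals, -0.0121 with no filter, and -0.0137 to 0.0745 when 1 horse was left out, lowest without horse 18), HK1 (-0.95 with library totals) and POSTN (-1.04 to 0.41 when 1 horse was left out, above 0 at 0.41 without horse 16 and 0.19 without horse 20, and 0.54 in horses 18 and 20 alone). The cause was not tested. Low counts limit genes of a few CPM.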

Other observations

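HOX genes record position along the body and limb. Of 19 HOX genes tested, 5 were called higher in muscle and 7 lower, against 31.9% and 38.1% of all genes, and with library totals 15 were lower. In horses 18 and 20 alone 3 were higher and 4 lower. HOXD10, of the cluster that patterns the limb, had 0.4995, 0.631, 0.0814, 1.06 and 0.0841 CPM in muscle, against 13.7, 13.2, 25.3, 26.8 and 26.1 CPM in tendon, and changed by -5.48 ± 0.48 (adjusted p = 5.26e-05, edgeR). HOXD9, HOXD11 and HOXD8 changed by -5.46 ± 0.56, -5.22 ± 0.28 and -4.83 ± 0.23. HOXA6, of another cluster, was higher in muscle and had 6.66, 7.12, 6.18, 6.47 and 5.89 CPM in muscle, against 1.42, 2.10, 1.32, 1.59 and 1.03 CPM in tendon (2.14 ± 0.22), and HOXA5 changed by 2.00 ± 0.19. No section overlapped between tissues for HOXD10.

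Guidance genes of axons and vessels were mostly on the tendon side, with 16 of 21 called lower in muscle and 2 higher. SLIT2, a repellent, changed by -5.37 ± 0.30, UNC5C, a netrin receptor, by -6.43 ± 0.58 and ROBO2, a Slit receptor, by -4.61 ± 0.42. SEMA3D had 0 counts in all muscle libraries and 7.52 ± 2.61 CPM in tendon (SD, n = 5), at least 29.8-fold lower in muscle with a floor of 3 counts per library. SEMA4D was higher in muscle at 2.15 ± 0.17. Of 20 aquaporins and ion pumps 10 were higher and 9 lower, with AQP3, a channel for water and glycerol, at -5.89 ± 0.25. Of 19 clock genes 3 were higher in muscle and 8 lower (16 with library totals and 3 in horses 18 and 20 alone), a share near the 38.1% of all genes, with HLF at -2.70 ± 0.17 and PER2 at -2.19 ± 0.13. Of 18 complement and coagulation genes 14 were lower in muscle.

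A pair of genes was chosen after their values were seen, for a wide range among horses and the same horse order in both tissues. APP, the amyloid precursor protein, had 8.74, 165, 154, 5.32 and 65.0 CPM in muscle, against 34.3, 443, 387, 29.5 and 276 CPM in tendon. In both tissues horses 14 and 18 were lowest and horses 16 and 17 highest, and the order of the 5 horses was the same in both tissues. CREG1, a lysosomal glycoprotein, had 9.99, 11.9, 12.3, 14.6 and 1.60 CPM in muscle, against 21.9, 34.6, 37.7, 57.1 and 6.94 CPM in tendon, lowest in horse 20 in both. Among 8651 genes of at least 5 CPM in both tissues, 72 had a range among horses of at least 2 log2 units in each tissue. Of these, 5 (6.94%) had the same horse order in both tissues, beside 197 of all 8651 (2.28%).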
